A study of Mus musculus with 4 samples.

Results

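The interferon response and antigen presentation genes were examined in RNA-seq of *rd7* and wild-type mouse retinas. They were chosen by name as 39 genes of 9 roles: MHC class I, MHC class II, the transactivators of both, peptide loading, interferon receptors, STAT and IRF factors, nucleic acid sensors, interferon-induced effectors and interferon-induced GTPases. Of the 39 genes, 38 are among the 22095 loci of the expression table, and the expression of *H2-Q4* was not analysed here. The series holds 4 libraries, 2 of *rd7* retinas and 2 of wild-type retinas. The *rd7* mice carry a mutant allele of *Nr2e3*, a transcription factor of rod development, and both groups are given as strain C57BL/6J at 3 weeks of age. Every library was made from a pool of 8 retinas, taken from 2 females and 2 males, and values of single animals were not measured. A difference between libraries of a genotype is thus a difference between pools. In it the animals, the dissection and the library preparation cannot be told apart. Whole retinas were used, so in these libraries fewer cells of a type and less RNA per cell cannot be told apart.

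Interferons are secreted when cells sense foreign or misplaced nucleic acid. Type I interferons bind a receptor that includes Ifnar1, and interferon gamma binds one that includes Ifngr1. The receptors activate STAT proteins, which with Irf9 or as dimers bind the interferon-stimulated response element (ISRE) or the gamma-activated site (GAS) in the promoters of induced genes. Many of these genes encode antiviral proteins, and others encode the MHC molecules and peptide transporters that display antigen to T cells. In the healthy retina few cells present antigen, and microglia are its resident immune cells.

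The values are FPKM, in which the fragments of a gene are divided by its transcript length and by the depth of the library. The lowest FPKM steps in genes with 1 annotated transcript gave an approximate depth of 34800000 to 35600000 reads per library. The same window of steps, chosen by eye, was used for every library. The choice of window bears on the level of these estimates and limits how far they can differ. *Nr2e3*, the mutated gene, was listed at 2493 and 1589 FPKM in the *rd7* pools and at 385 and 394 FPKM in the wild-type pools, with a log2 fold change of 2.35 (limma, adjusted p = 0.0011). All retinal libraries expressed rod markers, at a summed 5000 and 5530 FPKM in *rd7* and 7750 and 7840 FPKM in wild-type over the 5 of 6 markers with an estimate in every library. Throughout, a gene was tested where its mean over the 4 libraries was at least 1 FPKM, fold changes are on the scale log2(FPKM + 0.1), and a gene was called at an FDR of 5% over the 12655 genes tested.

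Of the 38 genes, 26 were tested and 12 had a mean under 1 FPKM. In *rd7* retinas 3 of the 26 were higher, namely *H2-D1*, *Ifit2* and *Ifnar1*, and none was lower (limma, 1 of the 26 lower at an unadjusted p under 0.05). This is 11.5% of the genes tested, whereas 37.6% of all genes tested were called higher and 8.8% lower. The 26 genes had a median log2 fold change of 0.19, close to the 0.15 over all genes tested. In 6 genes (*B2m*, *H2-K1*, *H2-D1*, *Ifnar1*, *Ddx58* and *Ifit2*) both *rd7* values lay above both wild-type values, 23.1% of the 26 against 57.1% of all genes tested. In 4 genes (*H2-DMa*, *Ifngr1*, *Irf3* and *Irf7*) both *rd7* values lay below both wild-type values, 15.4% against 19.5%.

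**Figure D1:**
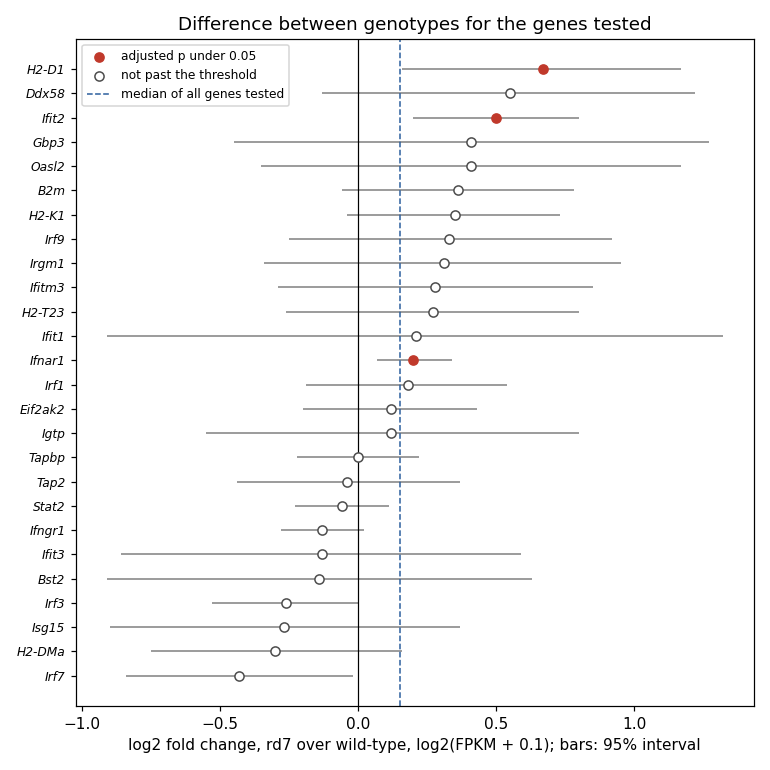
The horizontal axis gives the log2 fold change of *rd7* over wild-type, on log2(FPKM + 0.1), for the 26 genes tested, with bars for the 95% interval from limma. The 3 filled points (*H2-D1*, *Ifit2*, *Ifnar1*) passed an FDR of 5%, and the dashed line marks the median of all genes tested, 0.15.

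The pools of a genotype differed from each other in these genes. In 31 of the 38 genes *rd7* replicate 2 was above *rd7* replicate 1, and in 31 of the 38 wild-type replicate 1 was above wild-type replicate 2. Both held in 19 of the 26 genes tested (73.1%), and in 17.7% of all genes tested. By over 1.5-fold, *rd7* replicate 2 was above replicate 1 in 9 of the 26 genes (34.6%) against 1.18% of all genes tested, and wild-type replicate 1 was above replicate 2 in 8 (30.8%) against 0.458%. The direction of these counts and the limit of 1.5-fold were chosen after values were seen. The median difference between the *rd7* pools, replicate 2 minus replicate 1, was 0.40 on the log2 scale for the 26 genes and -0.01 for all genes tested. Between the wild-type pools, replicate 1 minus replicate 2, it was 0.27 for the 26 genes and -0.02 for all. Among genes with a mean of 1 to 10 FPKM, 7 of 18 (38.9%) differed by over 1.5-fold in this direction between the *rd7* pools against 1.89% of all 6183 such genes, and 8 of 18 (44.4%) between the wild-type pools against 0.841%.

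**Figure D2:**
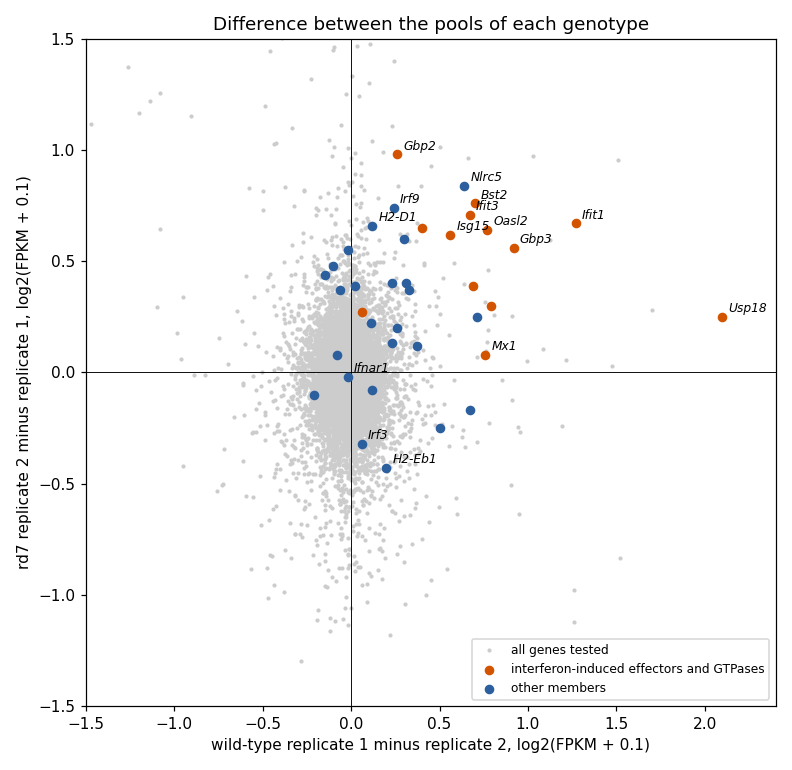
Each point is a gene, with the difference between the wild-type pools (replicate 1 minus replicate 2) on the horizontal axis and between the *rd7* pools (replicate 2 minus replicate 1) on the vertical axis, both on log2(FPKM + 0.1). Grey points are all genes tested, coloured points the 38 genes, of which the effectors and GTPases all lie above 0 on both axes. The axes leave out 58 genes.

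The MHC class I genes encode the molecules that present peptides from within the cell, and all 4 of those listed were tested. *B2m*, the invariant light chain (mm9, chromosome 2, bases 121973423 to 121978818), was at 15.6 and 22.8 FPKM in the *rd7* pools and at 14.5 and 14.8 FPKM in the wild-type pools. The heavy chain gene *H2-K1* was at 9.63 and 13.5 FPKM in *rd7* and at 8.63 and 9.26 FPKM in wild-type. *H2-D1*, another classical heavy chain gene (chromosome 17, bases 35400039 to 35404442), was at 15.5 and 24.4 FPKM in *rd7* and at 12.7 and 11.7 FPKM in wild-type. In these 3 genes the *rd7* pools did not overlap with the wild-type pools, and *rd7* replicate 2 was the highest library. *H2-D1* was called, with 19.9 ± 6.33 FPKM in *rd7* and 12.2 ± 0.735 FPKM in wild-type (SD, n = 2), a 1.63-fold difference and a log2 fold change of 0.67 (95% interval 0.16 to 1.17, limma, adjusted p = 0.0411). The call was lost without either wild-type library. In these fits calls over all genes tested fell too, and the spread came from the *rd7* pools alone. The log2 fold change was 0.73 without wild-type replicate 1 and 0.60 without wild-type replicate 2. It was 0.99 without *rd7* replicate 1 and 0.34 without *rd7* replicate 2. The log2 fold changes of *B2m* (0.36, 95% interval -0.06 to 0.78, adjusted p = 0.13) and *H2-K1* (0.35, 95% interval -0.04 to 0.73, adjusted p = 0.118) did not pass the threshold. *H2-T23*, which encodes the nonclassical molecule Qa-1, was at 2.87 and 4.39 FPKM in *rd7* and at 3.25 and 2.62 FPKM in wild-type, and here the genotypes overlapped.

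Class I genes are near-identical over parts of their transcripts. Of the runs of 50 bases (the read length) in the transcripts of *H2-D1*, 12.8% occurred also in another gene, most often *H2-Q2*, and for *H2-T23* the share was 15.7% and for *H2-K1* 7.3%. Reads from such runs could be assigned to either gene, so these levels are less certain than that of *B2m*, which shared none.

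The core of the ISRE was searched as GAAANNGAA on both strands in 300 bases around each RefSeq transcription start site (GRCm38.p6, 250 bases before and 50 after it). The window was found for 32 of the 39 genes. To show what a match to these letters looks like, the 150 bases before the start site of *B2m* and of the called *H2-D1* are given. They are in lower case, 5′ to 3′ along the gene, with ISRE cores in capitals. The *B2m* stretch is chr2:122147537-122147686 on the plus strand and the *H2-D1* stretch is chr17:35262944-35263093 on the plus strand.
*B2m*: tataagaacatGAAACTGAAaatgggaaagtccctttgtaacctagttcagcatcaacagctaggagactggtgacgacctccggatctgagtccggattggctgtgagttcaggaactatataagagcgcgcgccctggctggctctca
*H2-D1*: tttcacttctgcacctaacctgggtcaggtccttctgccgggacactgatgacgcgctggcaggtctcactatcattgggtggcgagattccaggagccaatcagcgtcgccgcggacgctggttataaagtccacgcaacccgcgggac
*B2m* holds 1 core, at bases -139 to -131 from the start site. *H2-D1* holds none in its window, which says only that these letters are not there. Related sites with other letters or spacing were not searched, so this is no statement that *H2-D1* lacks an interferon response site.

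The MHC class II genes encode the molecules by which professional antigen-presenting cells display peptides taken up from outside, and 4 of the 5 listed had a mean under 1 FPKM. *H2-Ab1*, a class II beta chain, was at 1.00 and 1.17 FPKM in *rd7* and at 0.981 and 0.804 FPKM in wild-type. *H2-Aa*, its alpha chain partner, reached 0.191 FPKM and *H2-Eb1* reached 0.264 FPKM, both in wild-type replicate 1. *Cd74*, the invariant chain, was highest in *rd7* replicate 1, at 0.297 FPKM. The only class II gene tested was *H2-DMa*, which encodes a chain of the peptide exchange factor, at 1.06 and 1.16 FPKM in *rd7* and at 1.59 and 1.21 FPKM in wild-type (log2 fold change -0.30, adjusted p = 0.233). Neither transactivator was tested. *Ciita*, the master regulator of class II genes, lay between 0.124 and 0.159 FPKM in the 4 libraries, and *Nlrc5*, the class I counterpart, was at 0.0922 and 0.243 FPKM in *rd7* and at 0.156 and 0.0647 FPKM in wild-type.

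Neither of the 2 peptide loading genes tested was called. *Tapbp*, which encodes tapasin, the bridge between class I molecules and the transporter, was at 14.6 and 17.1 FPKM in *rd7* and at 16.5 and 15.2 FPKM in wild-type, with a log2 fold change of 0.00 and a 95% interval of -0.22 to 0.22. *Tap2*, a subunit of the peptide transporter, was at 2.31 and 3.09 FPKM in *rd7* and at 2.98 and 2.53 FPKM in wild-type (log2 fold change -0.04, adjusted p = 0.861). The other subunit gene, *Tap1*, was under the limit for testing, at 0.866 and 1.15 FPKM in *rd7* and at 0.735 and 0.566 FPKM in wild-type, so that its genotypes did not overlap. All 3 genes were higher in *rd7* replicate 2 than in replicate 1 and in wild-type replicate 1 than in replicate 2.

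The interferon receptor genes varied little between pools. *Ifnar1*, a chain of the type I receptor (chromosome 16, bases 91485460 to 91510767), was at 11.9 and 11.8 FPKM in *rd7* and at 10.2 and 10.4 FPKM in wild-type. The genotypes were apart by more than the pools of either, and *Ifnar1* was called at a 1.15-fold difference (log2 fold change 0.20, 95% interval 0.07 to 0.34, limma, adjusted p = 0.0283). *Ifngr1*, the ligand-binding chain of the interferon gamma receptor, was at 14.0 and 14.8 FPKM in *rd7* and at 15.3 and 16.2 FPKM in wild-type (log2 fold change -0.13, adjusted p = 0.133). The 0.20 of *Ifnar1* is little above the median shift of 0.15 over all genes tested. With median-ratio scaling, which moved that median to 0.00, the log2 fold change of *Ifnar1* was 0.05 (adjusted p = 0.49) and that of *Ifngr1* was -0.28 (adjusted p = 0.016), so the call passed from one receptor gene to the other. The *Ifnar1* call was also lost without either wild-type library, where calls over all genes tested fell too. Its log2 fold change was 0.19 without wild-type replicate 1 and 0.21 without wild-type replicate 2.

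None of the 5 STAT and IRF genes tested was called by limma, and 1, *Irf7*, had an unadjusted p under 0.05. *Stat2*, a transcription factor activated by the type I receptor, lay between 9.46 and 10.6 FPKM in the 4 libraries. *Irf9*, the DNA-binding partner of Stat2, was at 5.05 and 8.48 FPKM in *rd7* and at 5.64 and 4.75 FPKM in wild-type. Its high value in *rd7* replicate 2 stood apart from the other 3 libraries. The log2 fold change of *Irf9* was 0.33 (limma, adjusted p = 0.293), -0.04 without that library and 0.70 without *rd7* replicate 1. *Irf7*, the factor that amplifies type I interferon production, was at 3.49 and 4.63 FPKM in *rd7* and at 6.08 and 4.88 FPKM in wild-type. *Irf3*, a constitutive factor activated by the sensors, was at 24.2 and 19.3 FPKM in *rd7* and at 26.5 and 25.5 FPKM in wild-type. For both genes the *rd7* pools lay below the wild-type pools, with log2 fold changes of -0.43 for *Irf7* (limma, adjusted p = 0.0789) and -0.26 for *Irf3* (limma, adjusted p = 0.0947), and both passed the threshold under median-ratio scaling, with -0.58 (adjusted p = 0.0432) and -0.42 (adjusted p = 0.0284). *Irf1*, an early interferon gamma target, was at 2.86 FPKM in *rd7* replicate 2 and between 2.16 and 2.25 FPKM in the other libraries. *Irf8*, a factor of microglia and other myeloid cells, was not tested, at 0.569 and 0.809 FPKM in *rd7* and at 0.434 and 0.493 FPKM in wild-type.

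The nucleic acid sensors were low. *Ddx58*, which encodes the RNA sensor RIG-I, was at 1.23 and 1.48 FPKM in *rd7* and at 1.17 and 0.677 FPKM in wild-type. The genotypes did not overlap, but the wild-type pools were 1.73-fold apart, and the log2 fold change of 0.55 (95% interval -0.13 to 1.22, adjusted p = 0.15) did not pass. *Eif2ak2*, the kinase PKR that halts translation upon binding double-stranded RNA, lay between 1.93 and 2.39 FPKM. *Ifih1*, a sensor of long double-stranded RNA, lay between 0.570 and 0.914 FPKM and was not tested.

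All 9 interferon-induced effectors were higher in *rd7* replicate 2 than in replicate 1 and in wild-type replicate 1 than in replicate 2. *Isg15*, a ubiquitin-like modifier (chromosome 4, bases 155573533 to 155574927), was at 3.33 and 5.16 FPKM in *rd7* and at 6.11 and 4.11 FPKM in wild-type. *Ifit1*, which binds viral RNA caps (chromosome 19, bases 34715379 to 34724499), was at 0.919 and 1.52 FPKM in *rd7* and at 1.63 and 0.617 FPKM in wild-type. *Bst2*, or tetherin, which holds budding virions at the cell surface (chromosome 8, bases 74058161 to 74061336), was at 2.73 and 4.68 FPKM in *rd7* and at 5.06 and 3.08 FPKM in wild-type. In all 3 genes wild-type replicate 1 and *rd7* replicate 2 were the 2 highest libraries, so that the genotypes overlapped. The lowest library was *rd7* replicate 1 for *Isg15* and *Bst2* and wild-type replicate 2 for *Ifit1*. The intervals of their log2 fold changes span 0 widely, at -0.90 to 0.37 for *Isg15*, -0.91 to 1.32 for *Ifit1* and -0.91 to 0.63 for *Bst2*, and leave room for a difference between genotypes in either direction. The log2 fold change of *Isg15* was -0.58 without *rd7* replicate 2 and 0.04 without *rd7* replicate 1.

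*Isg15*, *Ifit1* and *Bst2* also share ISRE cores close to the start site. Their 150 bases before it are shown as above, together with those of *Ifit2*, the effector that was called and whose window holds no core. In *Ifit1* the matches are to the reverse strand, so the capitals show the reverse complement of the core. The stretches are chr4:156200819-156200968 on the minus strand for *Isg15*, chr19:34640739-34640888 on the plus strand for *Ifit1*, chr8:71537473-71537622 on the minus strand for *Bst2* and chr19:34550544-34550693 on the plus strand for *Ifit2* (the first of its 2 start sites), all in GRCm38.p6.
*Isg15*: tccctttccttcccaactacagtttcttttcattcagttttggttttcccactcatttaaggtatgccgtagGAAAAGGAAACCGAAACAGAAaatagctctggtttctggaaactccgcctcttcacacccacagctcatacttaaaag
*Ifit1*: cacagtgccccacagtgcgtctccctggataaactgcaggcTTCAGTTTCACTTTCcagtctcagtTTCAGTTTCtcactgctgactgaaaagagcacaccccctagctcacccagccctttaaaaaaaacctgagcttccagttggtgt
*Bst2*: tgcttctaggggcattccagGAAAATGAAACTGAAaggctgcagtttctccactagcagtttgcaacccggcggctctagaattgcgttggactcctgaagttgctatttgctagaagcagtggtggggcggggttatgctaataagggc
*Ifit2*: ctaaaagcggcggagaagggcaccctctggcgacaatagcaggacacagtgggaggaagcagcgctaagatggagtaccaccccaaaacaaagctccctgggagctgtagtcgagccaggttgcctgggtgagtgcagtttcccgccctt
*Isg15* holds 3 overlapping cores between bases -78 and -58, *Ifit1* holds 3 between bases -109 and -76, and *Bst2* holds 2 that overlap between bases -130 and -116.

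*Ifit2*, an RNA-binding relative of *Ifit1* (chromosome 19, bases 34625184 to 34651024), was at 3.02 and 3.66 FPKM in *rd7* and at 2.37 and 2.26 FPKM in wild-type. Unlike in *Ifit1*, both *rd7* pools lay above both wild-type pools, and *Ifit2* was called at a 1.44-fold difference, 3.34 ± 0.452 FPKM against 2.32 ± 0.0743 FPKM (SD, n = 2, log2 fold change 0.50, 95% interval 0.20 to 0.80, limma, adjusted p = 0.0201). This call was lost without either wild-type library, where calls over all genes tested fell too. The log2 fold change was 0.53 without wild-type replicate 1 and 0.47 without wild-type replicate 2. *Ifit3*, the third gene of the cluster, was at 3.82 and 6.30 FPKM in *rd7* and at 6.82 and 4.26 FPKM in wild-type, the order of *Isg15* and *Bst2*. Of its runs of 50 bases, 51.5% occurred also in another gene, most often *I830012O16Rik*, so its level is uncertain.

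Of the other effectors, *Ifitm3*, a membrane protein that blocks viral entry, was the most abundant, at 16.5 and 25.9 FPKM in *rd7* and at 19.5 and 14.8 FPKM in wild-type. *Oasl2*, of the oligoadenylate synthetase family, was at 2.81 and 4.45 FPKM in *rd7* and at 3.47 and 2.00 FPKM in wild-type. *Usp18*, the protease that removes Isg15 from proteins and dampens receptor signalling, was at 0.823 and 0.995 FPKM in *rd7* and at 1.49 and 0.271 FPKM in wild-type. The wild-type pools of *Usp18* were 5.49-fold apart, more than in any other of the 38 genes, and the *rd7* pools lay between them. *Mx1*, an antiviral GTPase grouped here with the effectors, stayed under 0.15 FPKM in all libraries, with its highest value of 0.142 FPKM in wild-type replicate 1. Neither *Usp18* nor *Mx1* was tested, and neither *Ifitm3* (log2 fold change 0.28, adjusted p = 0.353) nor *Oasl2* (log2 fold change 0.41, adjusted p = 0.313) was called.

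The estimated reads behind these values put the differences between pools beside their counting error. For *Usp18* an estimated 93 reads in wild-type replicate 1 (exact Poisson 95% interval 75.1 to 113.9) stood against 17 reads in wild-type replicate 2 (9.9 to 27.2). For *Ifit1* an estimated 152 reads (128.8 to 178.2) stood against 57 (43.2 to 73.9) in the same libraries, and in *rd7* 140 reads (117.8 to 165.2) in replicate 2 stood against 87 (69.7 to 107.3) in replicate 1. Between the *rd7* pools *Usp18* had an estimated 61 reads (46.7 to 78.4) in replicate 2 and 52 (38.8 to 68.2) in replicate 1, and these intervals overlap. Over the 7 genes with 1 annotated transcript (*B2m*, *Ifit1*, *Ifit3*, *Ifitm3*, *Isg15*, *Usp18* and *Bst2*), the intervals of a genotype's pools did not overlap in 12 of 14 comparisons, the exceptions being *Usp18* in *rd7* and *B2m* in wild-type. The intervals cover counting error only, and the reads were estimated from the FPKM and the annotated transcript length. They rest on the depth estimated above, so the choice of window also bears on the reads and on the width of the intervals. How often such intervals fail to overlap in other genes was not counted. The 12 of 14 therefore cannot be set beside a share over all genes.

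**Figure D3:**
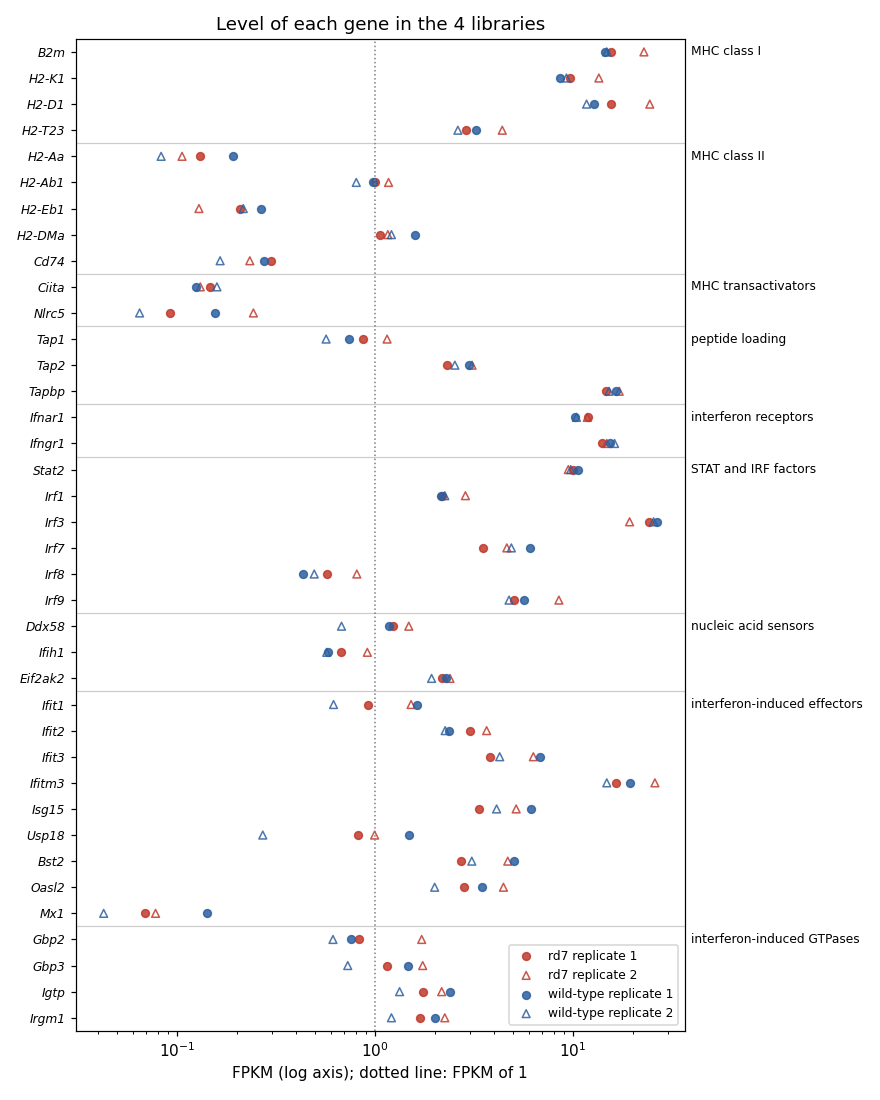
The horizontal axis gives the FPKM of each of the 38 genes in each of the 4 libraries on a log axis, by role, with *rd7* in red and wild-type in blue, replicate 1 as filled circles and replicate 2 as open triangles. The dotted line marks 1 FPKM, and in the effectors the wild-type circle lies to the right of the wild-type triangle and the *rd7* triangle to the right of the *rd7* circle.

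The 4 interferon-induced GTPases, which act on vacuoles that hold pathogens, followed the effectors. All 4 were higher in *rd7* replicate 2 than in replicate 1 and in wild-type replicate 1 than in replicate 2. The guanylate-binding protein gene *Gbp3* was at 1.15 and 1.74 FPKM in *rd7* and at 1.47 and 0.728 FPKM in wild-type. *Gbp2*, of the same family, was at 0.825 and 1.72 FPKM in *rd7* and at 0.753 and 0.613 FPKM in wild-type, and was not tested. The immunity-related GTPase gene *Igtp* was at 1.75 and 2.17 FPKM in *rd7* and at 2.38 and 1.33 FPKM in wild-type. Its relative *Irgm1*, a regulator of the family, was at 1.69 and 2.25 FPKM in *rd7* and at 2.00 and 1.21 FPKM in wild-type. The lowest library was wild-type replicate 2 in each of these genes, and none of the 3 tested was called, with adjusted p from 0.37 to 0.733.

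Among the 9 roles, the effectors had the largest median difference between the *rd7* pools, 0.64 on the log2 scale, and the GTPases between the wild-type pools, 0.74. The other medians of these roles were 0.70 for the effectors between the wild-type pools and 0.48 for the GTPases between the *rd7* pools. The class I genes had a median of 0.57 between the *rd7* pools but 0.05 between the wild-type pools. Both receptor genes were within 0.08 in either pair.

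In the promoter windows, 15 of the 32 genes held an ISRE core, whereas 9.8% of all 27025 genes with a window did. A GAS, searched as TTCNNNGAA, which reads the same on both strands, was held by 8 of the 32 genes and by 9.6% of all genes. Cores in a gene can overlap each other and a GAS, as in *Bst2*. The genes with a core were *B2m*, *H2-T23*, *Stat2*, *Ddx58*, *Ifih1*, *Eif2ak2*, *Ifit1*, *Ifit3*, *Ifitm3*, *Isg15*, *Bst2*, *Gbp2*, *Gbp3*, *Igtp* and *Irgm1*. In 13 of these 15, *rd7* replicate 2 was above replicate 1 and wild-type replicate 1 above replicate 2, with median differences of 0.56 and 0.56 on the log2 scale. Of the 16 listed genes whose windows held no core, 8 had both differences in this direction, with medians of 0.32 and 0.12. The 3 genes called between genotypes were among the latter, and *Ifit2* and *Ifnar1* each held a GAS. The median log2 fold change between genotypes was 0.21 with a core and 0.19 without. A match is a description of the letters, and binding was not measured. Windows without a core were not searched for related sites that these letters miss. The counts with and without a core were not made over all genes, so they are a description of these genes only.

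**Figure D4:**
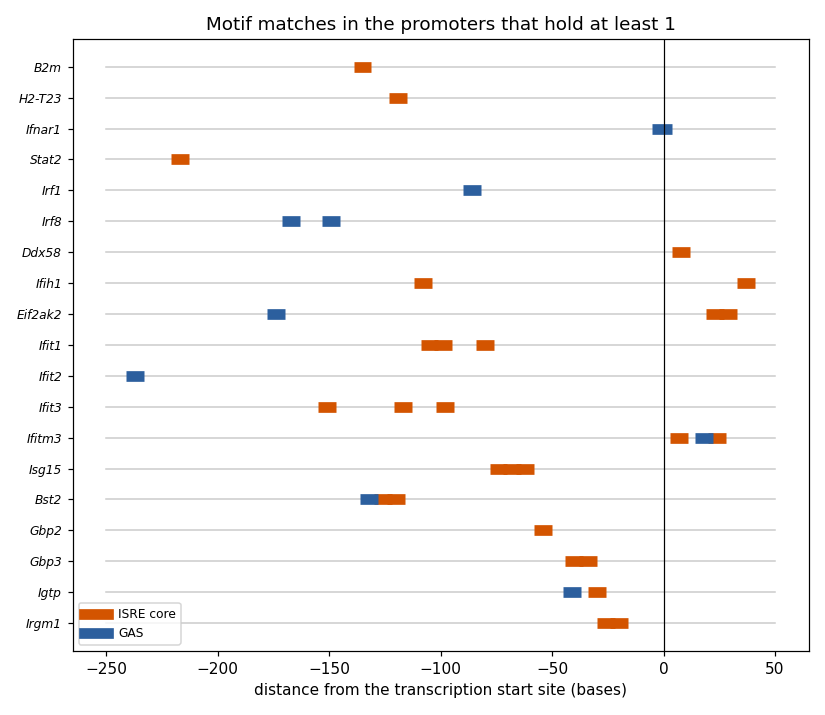
The horizontal axis gives the distance from the RefSeq transcription start site in bases for the 19 genes whose window of 300 bases held at least 1 match, with ISRE cores in orange and GAS in blue. In *Ifit1*, *Isg15* and *Bst2* the cores cluster between bases -130 and -58.

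Other genes of the pathway were counted from a list of 81 symbols that holds none of the 39 genes. Of the 78 listed, 42 were tested, 18 of these were higher in *rd7* (42.9%, against 37.6% of all genes tested) and 1 was lower. The 6 interferon ligand genes on the list were not detectable at this depth beyond 0.0262 FPKM, and 3 of them were listed at 0 in all libraries. Of 9 receptor, kinase and regulator genes tested, 6 were higher (66.7%). These 6 included *Socs3*, a feedback inhibitor of cytokine receptors, at 1.44 and 1.78 FPKM in *rd7* and at 0.950 and 0.804 FPKM in wild-type (log2 fold change 0.80, limma, adjusted p = 0.0167).

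Of the 18 other antigen presentation genes tested, 9 were higher and 1 was lower. *H2-Q6*, a nonclassical class I gene, was at 1.47 and 1.88 FPKM in *rd7* and at 0.689 and 1.05 FPKM in wild-type (log2 fold change 0.88, limma, adjusted p = 0.0293). Of the runs of 50 bases in *H2-Q4*, 21.4% occurred also in another gene, most often *H2-Q6*. The share among the runs of *H2-Q6* itself was not counted, so how far shared reads bear on its level is not known. *Psme2*, a subunit of the proteasome activator, fell by 0.18 on the log2 scale (limma, adjusted p = 0.0316), at 21.4 and 22 FPKM in *rd7* and at 24.6 and 24.4 FPKM in wild-type. *Canx*, *Erap1* and *Ctss*, named after their values were seen, encode the chaperone calnexin, a peptidase that trims class I peptides and the protease cathepsin S, and their log2 fold changes were 0.62, 0.69 and 0.72 (limma, adjusted p = 0.00104, 0.00439 and 0.00278). Of 11 other interferon-induced genes tested, 2 were higher (18.2%, against 37.6% of all genes tested). *rd7* replicate 2 was above replicate 1 and wild-type replicate 1 above replicate 2 in 8 of these 11, against 17.7% of all genes tested, and in 20 of the 29 listed.

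Markers of other cells moved with some of these values. The 13 microglia markers summed to 33.3 and 44.8 FPKM in *rd7* and to 30.0 and 30.4 FPKM in wild-type. Between the *rd7* pools, 12 of the 13 were higher in replicate 2, the pool with the higher class I and effector values. Between the wild-type pools, 5 of the 13 were higher in replicate 1, the pool with the higher effector values. The 7 endothelial markers summed to 60.1 and 42.9 FPKM in *rd7* and to 36.2 and 38.5 FPKM in wild-type, and none of them was higher in *rd7* replicate 2 than in replicate 1. T cell markers summed to at most 1.02 FPKM, with *Cd3e* listed at 0 in all libraries, and B cell markers to at most 0.687 FPKM. The 5 lens markers summed to 10.4 and 23.5 FPKM in *rd7* and to 19.3 and 40.5 FPKM in wild-type, and the 3 blood markers, 1 of them listed at a pair of loci, to 76.7 and 161 FPKM in *rd7* and to 235 and 317 FPKM in wild-type. Both were higher in *rd7* replicate 2 than in replicate 1, as the effectors were, and lower in wild-type replicate 1 than in replicate 2, where the effectors were higher. The 6 pigment epithelium markers summed to 22.5 and 22.2 FPKM in *rd7* and to 14.2 and 8.51 FPKM in wild-type, with 3 of the 4 tested higher in *rd7*. Of the 6, 5 were higher in wild-type replicate 1 than in replicate 2, as the effectors were, and 3 in *rd7* replicate 2 than in replicate 1. Müller cell markers summed to 1460 and 1420 FPKM in *rd7* and to 1250 and 1290 FPKM in wild-type, perivascular macrophage markers to 6.43 and 6.10 FPKM and to 4.51 and 4.58 FPKM, and dendritic cell markers to 2.90 and 2.92 FPKM and to 2.37 and 2.20 FPKM. The part of any of these cells in the values above was not tested.

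Which of the 26 genes were called depended on the libraries and the scaling. Without *rd7* replicate 1 the log2 fold changes of *H2-D1*, *Ifit2* and *Ifnar1* were 0.99, 0.64 and 0.19, and that of *Irf3* was -0.42. In the same fit those of *B2m*, *H2-K1*, *H2-T23* and *Ifitm3* were 0.63, 0.59, 0.57 and 0.61. Those of *Irf1*, *Irf9* and *Oasl2* were 0.36, 0.70 and 0.73. Without *rd7* replicate 2 the log2 fold changes of *H2-D1*, *Ifit2* and *Ifnar1* were 0.34, 0.37 and 0.21, with -0.63 for *Irf7* and -0.58 for *Isg15*. Those of *B2m*, *H2-K1*, *H2-T23* and *Ifitm3* were 0.09, 0.11, -0.03 and -0.04. Those of *Irf1*, *Irf9* and *Oasl2* were -0.01, -0.04 and 0.09. The median log2 fold change of the 26 genes was then -0.03, against 0.15 over all genes tested. Without *rd7* replicate 1 it was 0.32, against 0.14. The 3 calls were lost without either wild-type library, and calls over all genes tested fell too. The median of the 26 genes was 0.26 without wild-type replicate 1 and -0.04 without wild-type replicate 2, against 0.14 and 0.16 over all genes tested. Under median-ratio scaling, which left 19.7% of all genes tested higher and 19.6% lower, none of the 26 was higher (1 at an unadjusted p under 0.05) and *Ifngr1*, *Irf3* and *Irf7* were lower. *H2-D1*, *Ifit2* and *Ifnar1* kept positive log2 fold changes under that scaling, at 0.51, 0.35 and 0.05, with adjusted p of 0.103, 0.0695 and 0.49. With each library corrected for exon length and base composition (GC content) these were 0.58, 0.17 and -0.05, so the direction of *Ifnar1* turned.

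**Figure D5:**
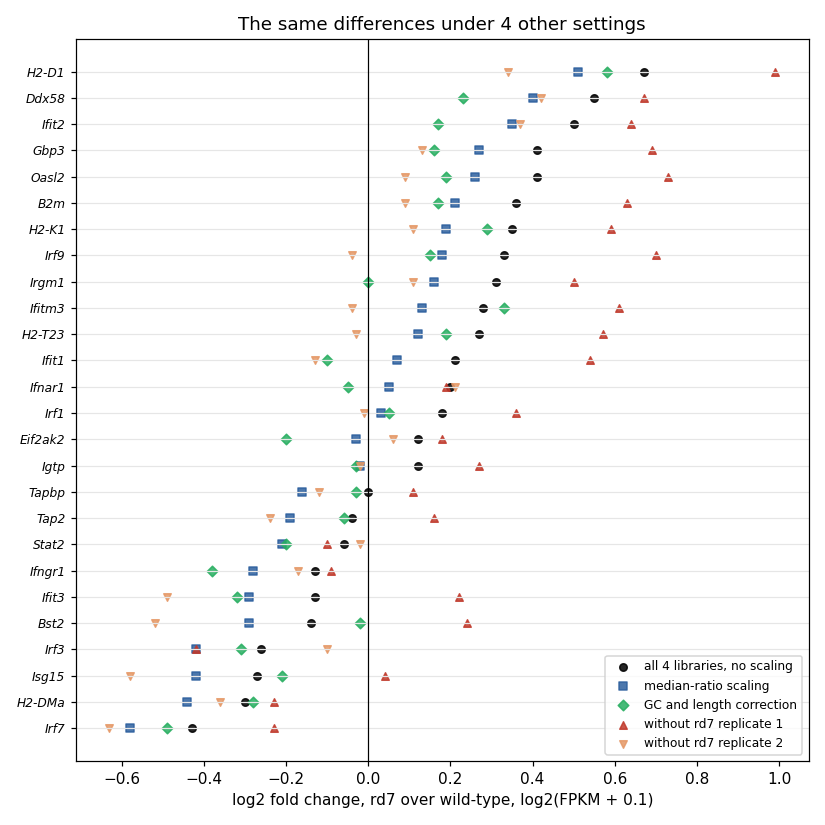
The horizontal axis gives the log2 fold change of *rd7* over wild-type, on log2(FPKM + 0.1), for the 26 genes tested under 5 settings, with all 4 libraries and no scaling in black. The points without *rd7* replicate 1 (red) lie to the right of those without *rd7* replicate 2 (orange) in most genes, with *H2-D1* at 0.99 and 0.34.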

How the data were processed

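PolyA-selected RNA of 4 pools of retinas was sequenced as single reads of 50 bases on 1 lane. Per the labels, the authors used TopHat 1.4.1, Cufflinks 1.3.0 and Cuffdiff with mm9, and the deposited FPKM per gene and library, with an estimation status, were used here. The authors also deposited a table of their own comparison, with pooled FPKM, fold changes, p-values and q-values, which was not used.

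The genes and all lists were chosen with earlier results of these data known. Values were taken as log2(FPKM + 0.1). Of 22095 loci, 262 without an OK status in every library were left out, and the 12655 with a mean of at least 1 FPKM entered a linear model of genotype over 2 *rd7* and 2 wild-type libraries (R 4.3.3, limma 3.58.1, two-sided moderated test with a mean-variance trend, Benjamini-Hochberg adjustment over all of them). The step was tested on simulated data. With 2 libraries a group the smallest p of an exact permutation test is 0.333, and none was run. GC content and exonic length came from a GENCODE annotation of the same build and were found for 96.9% of the genes tested.

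Named are all genes of the module, *Nr2e3*, of the pathway list the 3 largest rises and falls past the threshold (1 item of this rule is not reported here), and markers where a sentence is about their list. Depth was estimated from the lowest FPKM times exonic length in genes with 1 transcript of over 800 bases, in a window of 0.015 to 0.04 chosen by eye, so estimated reads and their intervals are approximate. Runs of 50 bases shared with other genes were counted in GENCODE protein-coding transcripts, a check added after the files were seen in place of protein identity, which was not run. Promoters came from RefSeq, and scripts were in Python 3.11.15. Alternatives were pseudocounts of 1 and 0.01, no filter, a mean of at least 5 FPKM, a replicate block, scaling by median ratios, a GC and length correction, quantile normalization, a fit without the trend, and leaving out each library.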

Additional observations from a re-analysis of the deposited data

How the results depend on the processing

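No call among the 26 genes changed with a pseudocount of 1 or 0.01. Counts that moved by over 1.5-fold are given next, and the cause of each was not tested. Without a filter on low FPKM, 2249 of all genes were higher and 455 lower, 1 of the 38 genes then tested was higher (*Ifnar1*) and 7 pathway genes were higher. With a mean of at least 5 FPKM, which leaves fewer genes, 11 pathway genes were higher. With median-ratio scaling, 2492 of all genes were higher and 2479 lower, 0 and 3 of the 26 genes, and 6 and 2 pathway genes. With quantile normalization these were 2350 and 2404, 0 and 3, and 4 and 2. After the GC and length correction they were 1517 and 1847, 0 and 1, and 3 and 3. Without a trend, 0 pathway genes were lower, and *H2-D1* missed the threshold (adjusted p = 0.0746).

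The fold change reversed in *Eif2ak2* (-0.03) and *Igtp* (-0.02) with median-ratio scaling. It did so in *Eif2ak2* (-0.08), *Ifit1* (-0.02), *Igtp* (-0.07) and *Irf1* (-0.02) with quantile normalization, and in *Eif2ak2* (-0.20), *Ifit1* (-0.10), *Ifnar1* (-0.05) and *Igtp* (-0.03) after the GC and length correction. Leaving out each library gave 1293 to 5484 of all genes higher and 224 to 1601 lower, 0 to 10 and 0 to 2 of the 26 genes, and 3 to 20 and 0 to 2 pathway genes. A library left alone in its group is assumed to vary like the other group. The log2 fold changes that turned ran from -0.52 to 0.24 for *Bst2*, -0.49 to 0.22 for *Ifit3*, -0.58 to 0.04 for *Isg15*, -0.24 to 0.16 for *Tap2*, -0.12 to 0.11 for *Tapbp*, -0.03 to 0.57 for *H2-T23*, -0.43 to 0.84 for *Ifit1*, -0.04 to 0.61 for *Ifitm3*, -0.27 to 0.52 for *Igtp*, -0.01 to 0.36 for *Irf1*, -0.04 to 0.70 for *Irf9*, -0.05 to 0.87 for *Gbp3* and -0.04 to 0.65 for *Irgm1*.

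No pairing of the libraries by replicate number was seen over all genes tested (correlation of the deviations of same-numbered libraries -0.0265 over 12655 genes). A pairing that bears on only some genes could be missed by this measure. With a replicate block, 4 of the 26 genes were higher and 1 lower (*H2-K1* and *Irf3* joined), and 0 pathway genes were lower. With 2 pools per genotype, genes near 1 FPKM can be followed only for large differences.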
